A study of Homo sapiens with 24 samples.

Results

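The transcripts described here encode the cytosolic HSP90 chaperones, 2 of their co-chaperones (FKBP4 and STIP1), HSP70-type partners and the mitochondrial chaperonin pair HSPD1 and HSPE1. They were chosen by name, as 16 Ensembl transcript IDs of 10 genes, and 9 of the 16 were listed in each deposited table, out of 11252 transcripts for LM2 and parental cells and 10767 for knockdown and control guide cells. The 9 were the same in both tables and stood for 1 transcript each of FKBP4 (ENST00000001008), HSP90AA1 (ENST00000334701), HSP90AB1 (ENST00000353801), HSPA8 (ENST00000227378), HSPD1 (ENST00000345042), HSPE1 (ENST00000233893), DNAJB1 (ENST00000254322), STIP1 (ENST00000358794) and HSPA4 (ENST00000304858). The 7 IDs absent from both tables were ENST00000216281 (HSP90AA1), ENST00000371554 and ENST00000371646 (HSP90AB1), ENST00000534624 (HSPA8), ENST00000388968 (HSPD1), ENST00000305218 (STIP1) and ENST00000320027, which was the sole ID for HSPH1. The choice was made with earlier results on these libraries known, and the values behind it are not recorded. For this reason the counts of tests passed below describe these transcripts and support no statement about chaperones as a class.

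All cells were MDA-MB-231, an established line of triple-negative breast cancer. Ribosome footprints (Ribo-seq) and RNA (RNA-seq) were measured in 4 groups with 3 replicates per group and assay. LM2 cells, labelled highly metastatic to lungs, were compared with parental cells, labelled poorly metastatic. Cells labelled HNRNPC knockdown (sgHNRNPC) were compared with control guide cells (sgCTRL), both of them poorly metastatic by label. The labels name neither the guide sequence nor the kind of Cas protein, and do not state whether each group was a clone or a pool. HNRNPC itself was not analysed here, because the tables carry transcript IDs without gene names, and the names above come from the list of IDs.

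HSP90 is an ATP-driven chaperone that holds near-native client proteins, such as kinases and steroid hormone receptors, until they can act. Clients are passed on from HSP70 with the help of DNAJ proteins and of STIP1 (HOP), which binds HSP70 and HSP90 at once, and FKBP4 (FKBP52) joins HSP90 later, as an immunophilin with a tetratricopeptide repeat domain. HSPD1 (HSP60) and HSPE1 (HSP10) form the folding chamber of the mitochondrial matrix. Many of these genes are induced by heat shock factor 1 (HSF1), which binds repeated, alternately oriented GAA units called heat shock elements, and tumour cells often hold them at a high level.

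The promoters were searched for this element, which is textbook for the family, and its matches are shown as a description of the genes. RefSeq windows of 300 bases (GRCh38.p14), from 250 bases before to 50 bases after an annotated start, were found for 9 of the 10 genes named above, all but FKBP4, and 16 windows in all. These 9 genes thus differ from the 9 with measured transcripts, since they hold HSPH1 and lack FKBP4. They were searched on both strands for 3 alternating units, written GAANNTTCNNGAA or TTCNNGAANNTTC, which are each other's reverse complement. A match was found in 0.490% of all 35116 windows and for 4 of the 9 genes with a window, against 0.608% of all 27305 genes. The 4 were HSP90AA1, HSP90AB1, HSPA8 and HSPD1. Each line gives 30 bases around a match, 5′ to 3′ on the gene's strand, with matched units and their spacers in capitals.
HSP90AA1, chr14:102087111-102087140, minus strand, 88 bases before a start: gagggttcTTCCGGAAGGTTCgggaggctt
HSP90AB1, chr6:44247770-44247799, plus strand, 165 bases before a start: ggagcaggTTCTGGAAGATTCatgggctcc
HSP90AB1, chr6:44247823-44247852, plus strand, 112 bases before a start: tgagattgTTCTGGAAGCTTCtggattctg
HSPA8, chr11:123062345-123062374, minus strand, 230 bases before a start: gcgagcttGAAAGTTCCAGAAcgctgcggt
HSPA8, chr11:123062170-123062199, minus strand, 55 bases before a start: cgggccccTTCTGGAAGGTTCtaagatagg
HSPD1, chr2:197500061-197500090, minus strand, 245 bases before a start: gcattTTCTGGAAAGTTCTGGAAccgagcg
In HSPD1 overlapping matches join into a run of 4 units. All 6 stretches lie inside the annotated span of their gene, downstream of its outermost end, and the start used by the listed transcript is not given. A pair of units (GAANNTTC or TTCNNGAA, which overlap the longer motif) was found for 6 of the 9 genes with a window, against 16.2% of all genes. A match is a description of these letters and shows no binding. HSPD1 (chr2:197486584-197500274) and HSPE1 (chr2:197500379-197503449) are neighbours on opposite strands, and their outermost starts are 105 bases apart.

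Values are the authors' normalized signal per transcript, in which RNA and footprints have separate scales, and the 2 tables were scaled separately. The sum of RNA values in a library was between 32454759 and 34184294 for LM2 and parental cells and between 23607900 and 26617054 for knockdown and control guide cells. Footprint sums were between 1023095 and 1134509 and between 669584 and 753066 in the same order. Changes are differences of log2(value + 1) with a standard error (SE) from limma, fitted over all 9342 tested transcripts of the LM2 table and 8283 of the knockdown table. A change passed when its Benjamini-Hochberg adjusted p over that table was under 0.05. All 9 chaperone transcripts lay far above the filter on low values. Translation efficiency is the footprint signal per RNA signal, and its change is the footprint change minus the RNA change. Separate cultures are not stated for the replicates, so that the spread between them may be technical. HSP90AA1, HSP90AB1, HSPA8, HSPD1 and HSPE1 have near-identical paralogs or pseudogenes, and how the authors assigned shared reads is not given, which leaves their values uncertain.

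HNRNPC knockdown cells held more RNA of both HSP90 genes, of FKBP4 and STIP1, of HSPA8 and of HSPD1 than control guide cells. RNA rose for 6 of the 9 transcripts, where 28.0% of all tested transcripts rose, and fell for 1 (HSPA4), where 45.4% fell. In either direction 7 of the 9 passed, where 73.5% of all tested transcripts did. The split over all tested transcripts depended on scaling, with 2323 higher and 3761 lower as deposited, 3010 and 3058 once the median change was set to 0, and 3062 and 3012 under quantile normalization. The 6 rises were between 1.12-fold and 2.02-fold. The median RNA change was 0.26 for the 9 and -0.10 for all tested transcripts on the log2 scale. The 9 transcripts took 0.831% to 0.872% of the summed RNA signal in control guide libraries and 1.19% to 1.24% in knockdown libraries. Most of this share came from HSP90AA1, HSP90AB1 and HSPA8. The sum itself was 26071868 to 26617054 in control guide and 23607900 to 23863260 in knockdown libraries, and this smaller sum enters the rise in share.

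FKBP4 had the largest RNA change of the 9. Its RNA values were 7891, 7371 and 7406 in control guide cells and 15380.5, 15484 and 14861 in knockdown cells. The knockdown libraries were all far above the control libraries and the groups were far apart. The change was 1.01 ± 0.04 (log2 change ± SE, 2.02-fold, adjusted p = 2.61e-17), and 2.08% of the tested transcripts rose as much. STIP1 RNA was 9760.4, 9401 and 9972 in control guide cells and 11533, 11604 and 11724 in knockdown cells. This was a smaller rise without overlap, of 0.26 ± 0.04 (adjusted p = 1.4e-06). The 2 co-chaperones that dock on the same HSP90 tail thus both rose, FKBP4 by more, and the difference between genes was not tested.

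The pair of cytosolic HSP90 genes rose by different amounts, and the difference between them was not tested. HSP90AB1, the constitutive form, had RNA values of 52825, 52638 and 55354 in control guide cells and 84348, 87039 and 80529 in knockdown cells. All knockdown libraries lay above all controls, with a change of 0.65 ± 0.04 (1.57-fold, adjusted p = 1.71e-13). HSP90AA1, the more stress-inducible form, had RNA values of 77026, 78794 and 81982 in control guide cells and 93711, 98164 and 93420.1 in knockdown cells. Its groups were also apart, with a change of 0.26 ± 0.04 (1.20-fold, adjusted p = 1.78e-06).

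Among HSP70-type genes the RNA changes were small and of mixed sign. HSPA8, the constitutive HSC70, had RNA values of 49395, 45939 and 50084 in control guide cells and 55432, 55665 and 52010.2 in knockdown cells. The groups did not overlap, and the change was 0.17 ± 0.04 (adjusted p = 0.000824). HSPA4, an HSP110-type nucleotide exchange factor of HSP70, had RNA values of 9986, 9993 and 10669 in control guide cells and 9003, 9796 and 9637 in knockdown cells. Its fall by 0.11 ± 0.04 (adjusted p = 0.0239) was about the median change of all tested transcripts, did not pass after TMM scaling, with that median set to 0 or without a variance trend, and became a change of 0.05 after quantile normalization. Without control guide replicate 3 or knockdown replicate 1 it did not pass either, with changes between -0.13 and -0.07 over all such fits. DNAJB1, an HSP40 that delivers clients to HSP70, had a change of -0.03 ± 0.04 (95% interval -0.12 to 0.06) and did not pass as deposited. After quantile normalization it was 0.18 and passed.

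The neighbouring chaperonin genes had unlike RNA changes, and the difference between them was not tested. HSPD1 RNA was 7364, 7178 and 7682 in control guide cells and 10915, 11103 and 11816 in knockdown cells. The groups were well apart, with a change of 0.61 ± 0.04 (1.52-fold, adjusted p = 1.65e-12). HSPE1 RNA was 1182, 1335 and 1147 in control guide cells and 1192, 1220.1 and 1358 in knockdown cells. These groups overlapped, and the change of 0.04 ± 0.08 (95% interval -0.11 to 0.20) did not pass.

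**Figure D1:**
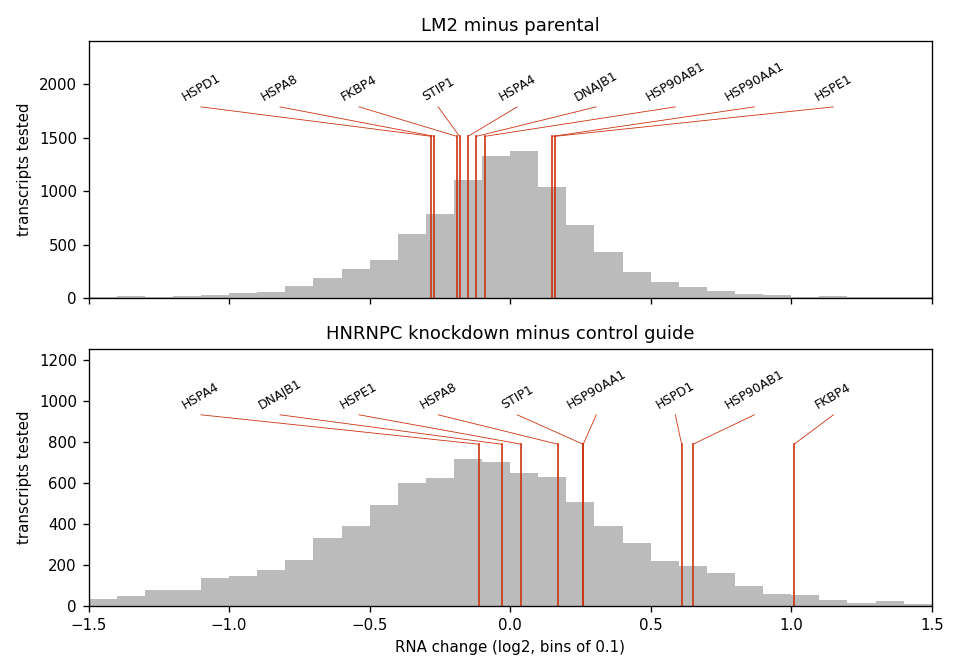
RNA changes (log2, x axis) of all tested transcripts in bins of 0.1 (grey bars, number of transcripts on the y axis) for LM2 minus parental (top) and knockdown minus control guide (bottom), within -1.5 to 1.5. Red lines mark the 9 chaperone transcripts. In the knockdown panel FKBP4, at 1.01, lies in the upper tail, and in the LM2 panel all 9 lie between -0.28 and 0.16.

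FKBP4 footprints rose by 0.72, against 1.01 for its RNA. The difference between these rises, its efficiency change, did not pass as deposited (adjusted p = 0.123 with limma). The other transcripts with more RNA did not pass for a footprint rise as deposited. Footprints rose for 1 of the 9 (FKBP4), where 15.5% of all tested transcripts rose, and fell for 1 (HSPE1), where 20.7% fell (36.2% in either direction). The median footprint change was -0.01 for the 9 and -0.04 for all tested transcripts.

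FKBP4 footprint values were 269, 254 and 250.0 in control guide cells and 390.3, 405 and 485 in knockdown cells. The groups were apart, with knockdown replicate 3 the highest, and the change was 0.72 ± 0.10 (1.65-fold, adjusted p = 1.66e-06). It ranged from 0.62 to 0.78 and kept passing in the 6 fits that left out 1 replicate. HSPE1 footprints were 144, 130.0 and 138 in control guide cells and 91.8, 96.7 and 128 in knockdown cells. Its fall by 0.39 ± 0.12 passed (0.762-fold, adjusted p = 0.0109). Without knockdown replicate 1 it was -0.30 (adjusted p = 0.0774) and without knockdown replicate 2 it was -0.34 (adjusted p = 0.0563), and it did not pass without a variance trend.

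HSP90AB1 footprints were 1322, 1255 and 1178 in control guide cells and 1271, 1402 and 1631 in knockdown cells. These groups overlapped, and the change of 0.19 ± 0.12 (95% interval -0.06 to 0.44) did not pass as deposited. After quantile normalization it was 0.47 and passed, and without knockdown replicate 1 it was 0.27 and passed. HSP90AA1 footprints were 1395, 1315 and 1265 in control guide cells and 1093, 1202 and 1414 in knockdown cells. They overlapped as well, with a change of -0.11 ± 0.12 that did not pass.

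HSPD1 footprints were 591, 614 and 581 in control guide cells and 684, 651 and 783 in knockdown cells. All 3 knockdown values were above the controls, yet the change of 0.24 ± 0.10 did not pass as deposited (adjusted p = 0.0694). It passed after TMM scaling (adjusted p = 0.0479), with the median change set to 0 (0.0366) and after quantile normalization (2.9e-05). It also passed without knockdown replicate 1 (adjusted p = 0.0339). STIP1, HSPA8, DNAJB1 and HSPA4 had footprint changes between -0.14 and 0.03, none of which passed.

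Knockdown replicate 3 had the highest footprint value of its group for 8 of the 9 transcripts, all but DNAJB1. It also had the largest footprint sum of its group (724090 against 669584 and 699261). The share of all tested transcripts that were highest in it is not given here. The 9 took 0.978% of the summed footprint signal in that library, against 0.840% and 0.862% in the other knockdown libraries and 0.788% to 0.837% in control guide libraries. The part of this library in the footprint changes is seen in the fits without it, in which FKBP4 and HSPE1 still passed and no other transcript of the 9 did.

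**Figure D2:**
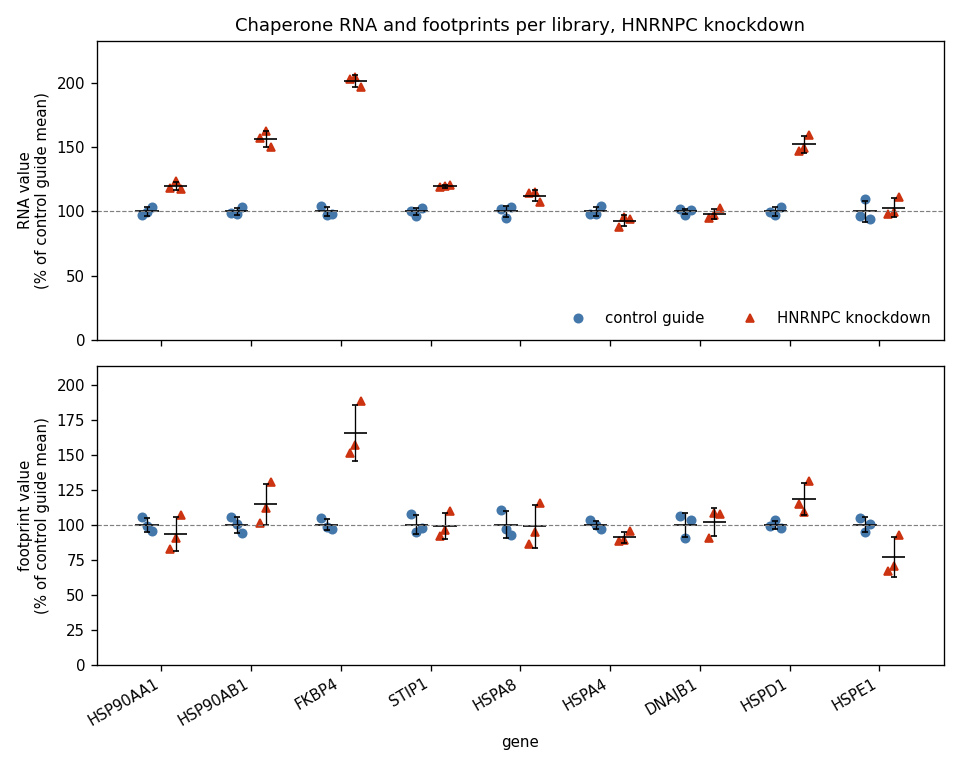
RNA values (top) and footprint values (bottom) of each chaperone transcript in each library, as a percent of the control guide mean (y axes start at 0). Blue circles are control guide and red triangles knockdown libraries, with the mean (line) and SD (bars) of 3 replicates. FKBP4 stands apart in both panels. HSP90AB1 and HSPD1 stand apart in RNA, while in footprints the HSP90AB1 groups overlap and those of HSPD1 are close without overlap.

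Translation efficiency changes in knockdown cells were between -0.46 and 0.06 for the 9 transcripts, and 1 of them passed. HSPD1 alone passed for a fall, where 1.74% of all tested transcripts fell, and none passed for a rise, where 3.72% rose (5.46% in either direction). The excess of rises over all tested transcripts (308 higher, 144 lower) turned with scaling, to 146 higher and 207 lower after TMM, 123 and 207 once the median change was set to 0, and 208 and 274 under quantile normalization. The RNA came from the lysates, and with footprints and RNA paired by replicate number 75 transcripts passed (0.905%, 36 higher and 39 lower). Of the 9 transcripts described here 0 were among them (3 of the 9 at an unadjusted p under 0.05 with limma, against 1539 of all 8283 tested). The median efficiency change was -0.29 for the 9 and 0.09 for all tested transcripts. Since RNA signal is the divisor, the RNA rises above enter these values directly.

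HSPD1 had footprint values per 1000 RNA units of 80.2, 85.5 and 75.6 in control guide cells and 62.7, 58.7 and 66.3 in knockdown cells, with libraries matched by replicate number. The groups did not overlap, and the change was -0.36 ± 0.10 (adjusted p = 0.0466). This call was lost when any single replicate other than knockdown replicate 3 was left out, with adjusted p from 0.0291 to 0.19 over the 6 fits. It was also lost with no filter on low values (0.0548) and without a variance trend (0.12). Both fits that use the replicate number lost it too, as a block over groups (0.0607) and as a pairing of footprints with RNA (0.191).

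HSP90AB1 had efficiency values of 25.0, 23.8 and 21.3 per 1000 RNA units in control guide cells and 15.1, 16.1 and 20.2 in knockdown cells. These groups did not overlap either, and the change of -0.46 ± 0.13 narrowly did not pass as deposited (adjusted p = 0.0532). It passed in 7 alternatives, with adjusted p from 0.00997 to 0.044. FKBP4 efficiency was 34.1, 34.5 and 33.7 in control guide cells and 25.4, 26.2 and 32.6 in knockdown cells. The knockdown values were all lower with libraries matched by replicate number, and this order rests on that matching. The change, from the fit without that matching, was -0.29 ± 0.11 (95% interval -0.52 to -0.07, adjusted p = 0.123) and did not pass as deposited. It passed after quantile normalization (-0.38, adjusted p = 0.00579) and without knockdown replicate 3 (-0.41, adjusted p = 0.0327). HSP90AA1 (-0.37 ± 0.13), HSPE1 (-0.43 ± 0.16) and STIP1 (-0.27 ± 0.10) did not pass, with adjusted p of 0.121, 0.127 and 0.134. After quantile normalization HSP90AA1 (-0.46) and STIP1 (-0.32) passed, and HSP90AA1 also passed with array weights (0.0465) and without knockdown replicate 3 (0.0393). HSPA8 (-0.19), HSPA4 (-0.03) and DNAJB1 (0.06) had intervals that hold 0, and DNAJB1 became negative under all 3 other scalings.

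**Figure D3:**
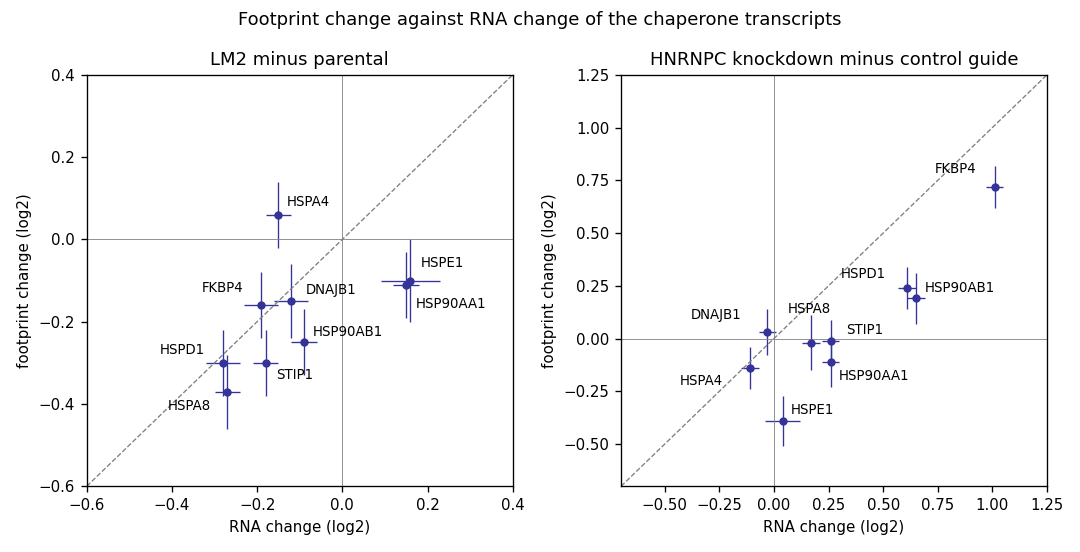
Footprint change (y axis, log2) against RNA change (x axis, log2) of the 9 chaperone transcripts in LM2 minus parental (left) and knockdown minus control guide (right), with SE bars and a dashed line where both changes are equal. In the right panel all transcripts but DNAJB1 lie below the line, FKBP4 at 1.01 and 0.72. The median efficiency change of all tested transcripts in that comparison was 0.09, and their share below the line is not given.

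LM2 cells held slightly less RNA of most of these chaperones than parental cells, with all 9 changes between -0.28 and 0.16. RNA fell for 7 of the 9, where 30.8% of all tested transcripts fell, and rose for 1 (HSP90AA1), where 22.9% rose. In either direction 8 of the 9 passed, where 53.7% of all tested transcripts did. The 7 falls and 1 rise became 5 falls and 2 rises once the median change was set to 0, and 4 falls and 3 rises under quantile normalization. The median RNA change was -0.15 for the 9 and -0.03 for all tested transcripts. The 9 took 1.06% to 1.11% of the summed RNA signal in LM2 libraries and 1.07% to 1.11% in parental libraries.

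HSPD1 and HSPA8 had the largest RNA falls. HSPD1 RNA was 12803, 12879.5 and 12283 in parental cells and 9890.3, 10826 and 10504 in LM2 cells. All LM2 values were lower, with a change of -0.28 ± 0.04 (0.822-fold, adjusted p = 1.72e-06). HSPA8 RNA was 94885, 95619 and 94355 in parental cells and 75360.5, 82792 and 77991 in LM2 cells, also without overlap. That change was -0.27 ± 0.03 (0.828-fold, adjusted p = 1.65e-07), and -0.02 without passing after quantile normalization (0.306).

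FKBP4 RNA was 12873, 12911 and 12420.0 in parental cells and 11236, 11542 and 10642 in LM2 cells. It fell by 0.19 ± 0.04 (0.874-fold, adjusted p = 0.000116), against its rise in the knockdown cells. STIP1 RNA was 15131, 15424 and 15121 in parental cells and 12921, 13832 and 13666 in LM2 cells, a fall by 0.18 ± 0.03 (adjusted p = 0.000144). Neither co-chaperone had overlapping groups.

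The HSP90 genes moved in opposite directions as deposited. HSP90AA1 RNA was 125409, 129732 and 123178 in parental cells and 137517, 143657 and 137711 in LM2 cells. All LM2 values were higher, with a change of 0.15 ± 0.03 (1.11-fold, adjusted p = 0.000125). HSP90AB1 RNA was 78780.1, 84343 and 78693 in parental cells and 74095, 77424 and 74974 in LM2 cells. Its fall by 0.09 ± 0.03 passed as deposited (adjusted p = 0.0121), became a rise of 0.10 that passed after quantile normalization (adjusted p = 0.00317), and did not pass without parental replicate 2 (adjusted p = 0.092), with the median change set to 0 (0.0621) or without a variance trend (0.152).

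HSPA4 RNA was 15845, 16167 and 15995 in parental cells and 14001, 14647 and 14659.9 in LM2 cells, a fall by 0.15 ± 0.03 without overlap (adjusted p = 0.000501). DNAJB1 RNA was 8397, 7909 and 7728 in parental cells and 7176, 7257 and 7660.0 in LM2 cells. These groups came close without meeting, and the fall by 0.12 ± 0.04 (adjusted p = 0.0156) was lost without parental replicate 1 (0.0972), without LM2 replicate 1 (0.0649), with the median change set to 0 (0.0526), after quantile normalization (0.459) and without a variance trend (0.0965). HSPE1 RNA was 1716, 1586 and 1517 in parental cells and 1679.6, 1941 and 1772 in LM2 cells. Its groups overlapped and the change of 0.16 ± 0.07 did not pass (adjusted p = 0.0534), while it passed without parental replicate 1 (0.0192), without LM2 replicate 1 (0.0261), with array weights (0.0459) and under all 3 other scalings (0.0267 to 0.0375).

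Footprints fell in LM2 cells for 4 of the 9, where 14.5% of all tested transcripts fell, and rose for 0, where 9.25% rose (23.8% in either direction). The 4 were HSPA8, HSPD1, STIP1 and HSP90AB1, and these falls did not hold under every scaling. After quantile normalization 0 of the 9 passed for a fall and 3 for a rise. Over all tested transcripts that setting gave 921 rises and 1031 falls. As deposited, the median footprint change was -0.16 for the 9 and 0.00 for all tested transcripts.

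HSPA8 footprints were 2192, 2249 and 2451 in parental cells and 2004, 1691 and 1668 in LM2 cells. The groups did not overlap, with a fall by 0.37 ± 0.09 (adjusted p = 0.00173). STIP1 footprints were 698, 635 and 662 in parental cells and 543, 534 and 537 in LM2 cells, a fall by 0.30 ± 0.08 without overlap (adjusted p = 0.00388). HSPD1 footprints were 935, 896 and 987 in parental cells and 839, 744 and 711 in LM2 cells. That fall was also by 0.30 ± 0.08 (adjusted p = 0.00657), and did not pass without LM2 replicate 3 (adjusted p = 0.0548).

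HSP90AB1 footprints were 1699, 1701 and 1838 in parental cells and 1632, 1397 and 1394 in LM2 cells. The fall by 0.25 ± 0.08 (adjusted p = 0.0273) did not pass in 5 of the 6 fits without a replicate, all but that without LM2 replicate 1. It did not pass with the replicate number as a block either (adjusted p = 0.0774). After quantile normalization, which sets the highest values of all libraries of an assay equal, it became a rise of 0.18 (adjusted p = 0.00223), HSPA8 had a change of 0.06, and HSPD1 (-0.03) and STIP1 (-0.08) no longer passed. None of the 4 falls passed without a variance trend, with adjusted p from 0.0776 to 0.174.

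The other 5 transcripts had footprint changes that did not pass as deposited. FKBP4 footprints were 419, 408 and 419 in parental cells and 393, 371 and 352 in LM2 cells. They did not overlap, and the change was -0.16 ± 0.08 (adjusted p = 0.151). Without LM2 replicate 1 it was -0.20 and just passed, while after quantile normalization it was 0.01. HSP90AA1 footprints were 1748, 1717 and 1809 in parental cells and 1728, 1573 and 1580.3 in LM2 cells. They overlapped, with a change of -0.11 ± 0.08 that turned to 0.28 after quantile normalization and then passed (adjusted p = 3.02e-05). Without LM2 replicate 1 it was -0.16 and passed as a fall (adjusted p = 0.0235). DNAJB1 (-0.15), HSPE1 (-0.10) and HSPA4 (0.06) were the others, of which HSPA4 passed after quantile normalization (0.28, adjusted p = 0.00581). LM2 replicate 1 had the highest footprint value of its group for 7 of the 9 transcripts. It also had the largest footprint sum of its group (1068217 against 1032960 and 1023095). The share of all tested transcripts that were highest in it is not given here.

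**Figure D4:**
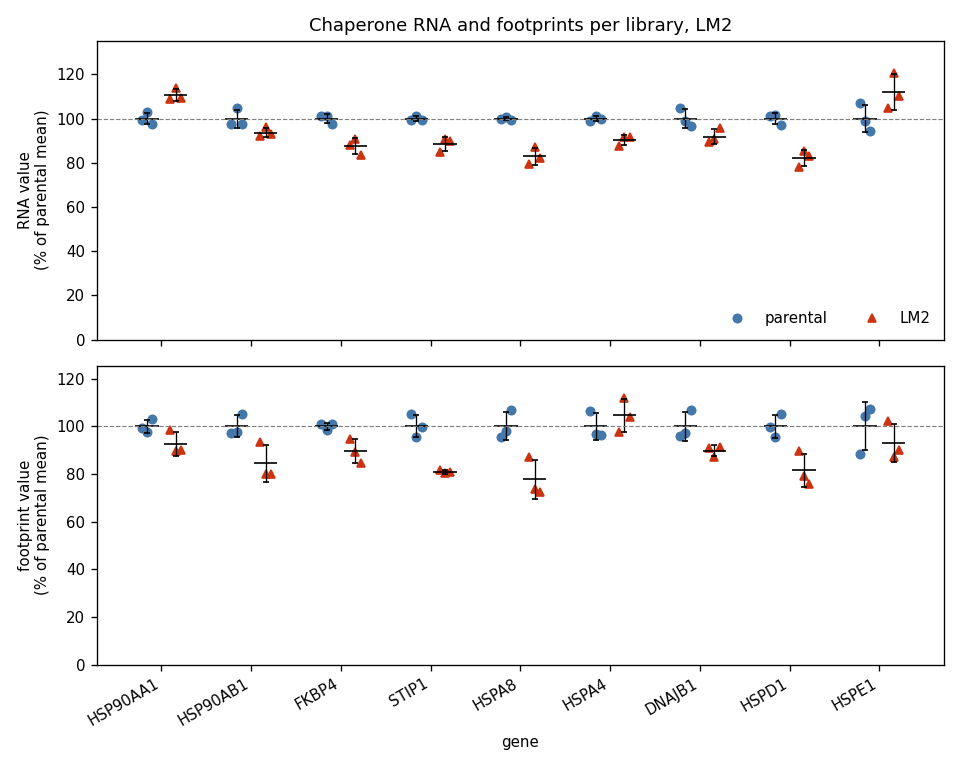
RNA values (top) and footprint values (bottom) of each chaperone transcript in each library, as a percent of the parental mean (y axes start at 0). Blue circles are parental and red triangles LM2 libraries, with the mean (line) and SD (bars) of 3 replicates. Most LM2 points lie a little below the parental points, with HSP90AA1 RNA above them.

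No efficiency change passed in LM2 cells with limma (0 of the 9, with 2 at an unadjusted p under 0.05), where 1.63% of all tested transcripts passed (0.471% for a rise and 1.16% for a fall). An unadjusted p under 0.05 was found for 1288 of all 9342 tested transcripts in the same fit. Over all tested transcripts 44 rose and 108 fell, against 29 and 153 with the median change set to 0. With footprints and RNA paired by replicate number, limma called 0 of all tested transcripts, with 1078 at an unadjusted p under 0.05 and none of the 9 among them. HSP90AA1 had efficiency values of 13.9, 13.2 and 14.7 per 1000 RNA units in parental cells and 12.6, 10.9 and 11.5 in LM2 cells. These did not overlap, and the change was -0.26 ± 0.08 (95% interval -0.43 to -0.08, adjusted p = 0.142). It became 0.14 after quantile normalization, and as a fall it passed without LM2 replicate 1 (adjusted p = 0.00263) and with array weights (0.0354). HSPA4 had the highest change, 0.21 ± 0.08 (95% interval 0.04 to 0.39, adjusted p = 0.25), from 36.2, 32.3 and 32.5 in parental cells to 37.6, 41.2 and 38.2 in LM2 cells. FKBP4 had 32.5, 31.6 and 33.7 in parental cells and 35.0, 32.1 and 33.1 in LM2 cells, with a change of 0.03 ± 0.08 (95% interval -0.13 to 0.20). The other 6 lay between -0.26 and -0.02, of which HSP90AB1 (-0.15) passed without LM2 replicate 1 (-0.24, adjusted p = 0.0469).

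**Figure D5:**
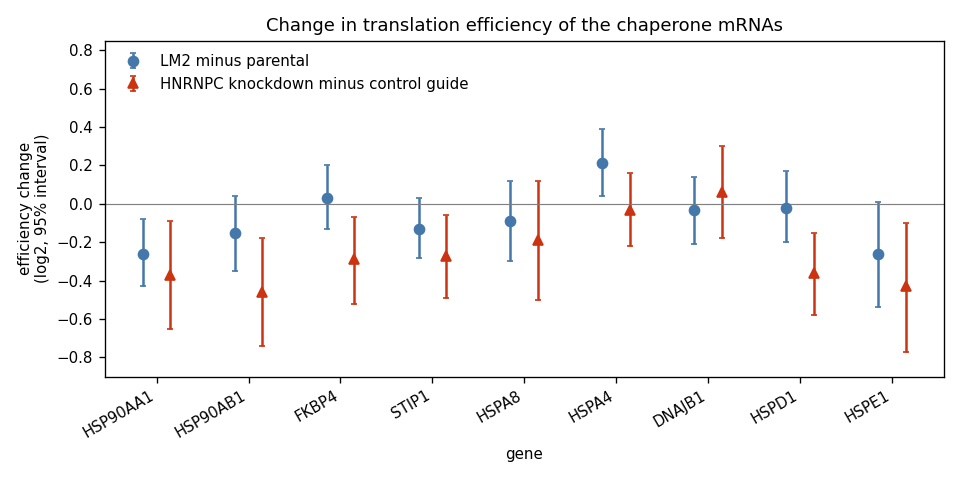
Change in translation efficiency (y axis, log2, with 95% intervals) of the 9 chaperone transcripts (x axis) in LM2 minus parental (blue circles) and knockdown minus control guide (red triangles). In the knockdown comparison 6 of the 9 intervals lie below 0 before adjustment, and 1 change, that of HSPD1, passed after it. Over all 8283 tested transcripts of that comparison, 1731 had an unadjusted p under 0.05 with limma, in either direction.

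The 2 comparisons share no library, and their values can be set side by side. RNA of FKBP4, HSP90AB1, HSPA8, HSPD1 and STIP1 was lower in LM2 than in parental cells and higher in knockdown than in control guide cells as deposited, HSP90AA1 rose in both, and HSPA4 fell in both. The HSPA4 fall in knockdown cells and the HSP90AB1 fall in LM2 cells turned sign after quantile normalization, as given above. By the distance over the 6 changes (RNA, footprints and efficiency in each comparison), HSPD1 (0.65) and HSP90AB1 (0.70) were nearest to FKBP4 among the chaperones described here. HSPE1 (1.55) was farthest. Efficiency change is footprint change minus RNA change, so this distance counts the same differences more than once.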

How the data were processed

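Ribosome footprints and RNA were measured in 24 libraries of MDA-MB-231 cells. Cells were lysed with cycloheximide, and total RNA was taken from lysates for a Takara SMARTer library, per the labels' protocols. Tools named in the submitters' processing notes are Bowtie2 2.3.5, cutadapt 2.3, SAMtools and UMI-tools, with the hg38 build. The deposited values are a normalized signal per transcript, per the file headers. How the authors counted, scaled or filtered them is not given in the sources used here. All RNA values were whole multiples of 1 step per library (100% within 0.05 of a whole step), which would be 23300000 to 52600000 reads per library if 1 step were 1 read. The lowest value was 4 to 11 steps, so this was not established. Footprint values had no such step, so their depth is unknown and no count model was run. The parental columns carry the line's name alone and were taken for the parental libraries by their number.

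Transcripts with a mean of at least 10 in RNA and in footprints were tested on log2(value + 1) with limma 3.58.1 (variance trend) in R 4.3.3, within a table. RNA and footprints were fitted on 6 libraries each, and efficiency on 12, as an interaction between group and assay. P-values are two-sided and Benjamini-Hochberg adjusted. The fits were run on simulated data with noise drawn independently for each value and no deviation shared by a whole library. That check does not cover such deviations, and its outcome is not given here. The transcripts, their grouping by role and the lists were chosen with earlier results of these data known. Transcripts past the threshold in any readout, and FKBP4, HSP90AA1 and HSP90AB1 in all, were to be given with every library. A list of other chaperone genes and one of cell line markers had been drawn up by symbol, and neither was analysed here, since the tables do not pair IDs with symbols. Alternatives were other pseudocounts (0.5 and 5), other filters (none and 50), TMM scaling (own implementation without weights), quantile normalization, a median change of 0, a replicate block, pairing of assays by number, no variance trend, array weights and leaving out each replicate. Promoters and positions are from RefSeq (GRCh38.p14), matched by symbol for 9 and 10 genes.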

Additional observations from a re-analysis of the deposited data

How the results depend on the processing

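Replicate numbers are shared by the groups. Between cell groups, deviations of same-numbered libraries from the group means correlated at -0.20 to 0.03, with 0 of 3 libraries closest to their own number in each pair of groups. Between RNA and footprints of a group the range was -0.01 to 0.13, with 2 of 3 closest in each of the 4 groups, a hint of shared lysates below the 0.1 asked of every pair. Both pairings were therefore kept as alternatives. With the replicate block, the knockdown count of chaperones past the efficiency threshold was 0 (1 as reported), and the other 5 counts stayed within 1.5 times. The calls lost under the block were those of HSPD1 efficiency in knockdown cells (adjusted p = 0.0607, and 0.191 with assays paired by number) and of HSP90AB1 footprints in LM2 cells (0.0774).

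The knockdown efficiency count of 1 was 2 with a pseudocount of 5, a minimum mean of 50, TMM scaling or the median change set to 0, 3 with array weights, 5 after quantile normalization, and 0 with no filter, with assays paired by number or with no variance trend, and 0 to 4 in fits without 1 replicate. The knockdown footprint count of 2 was 4 after quantile normalization and 1 with no variance trend, and 1 to 3 without 1 replicate. The LM2 footprint count of 4 was 0 with no variance trend and 2 to 6 without 1 replicate. After quantile normalization it was 3, with 3 rises and 0 falls in place of 4 falls. The LM2 efficiency count of 0 was 1 with array weights and 0 to 2 without 1 replicate. The cause was not tested. The RNA counts of 8 (LM2) and 7 (knockdown) in either direction stayed within 1.5 times, but the split of the LM2 count did not.

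After quantile normalization, signs turned in LM2 cells for HSP90AB1 RNA (0.10), for footprints of FKBP4 (0.01), HSP90AA1 (0.28), HSP90AB1 (0.18) and HSPA8 (0.06), and for efficiency of HSP90AA1 (0.14), HSP90AB1 (0.08), HSPA8 (0.08), HSPD1 (0.17), DNAJB1 (0.01) and STIP1 (0.04). In knockdown cells they turned for RNA of DNAJB1 (0.18) and HSPA4 (0.05), footprints of HSPA8 (0.11) and STIP1 (0.09) and efficiency of DNAJB1 (-0.03). With the median change set to 0, they turned for FKBP4 efficiency in LM2 cells (-0.01) and, in knockdown cells, DNAJB1 RNA (0.08) and efficiency (-0.03) and footprints of HSPA8 (0.01) and STIP1 (0.02). TMM scaling turned DNAJB1 RNA (0.06) and efficiency (-0.02) in knockdown cells.

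Without 1 replicate, changes that crossed 0 were LM2 efficiency of FKBP4 (0 to 0.06), HSPD1 (-0.12 to 0.04) and DNAJB1 (-0.10 to 0.04), knockdown RNA of HSPE1 (-0.02 to 0.11), knockdown footprints of HSPA8 (-0.14 to 0.07), DNAJB1 (-0.04 to 0.11) and STIP1 (-0.09 to 0.04), and knockdown efficiency of HSPA4 (-0.08 to 0.01). None of these had passed. Of 882 values of single chaperones under an alternative, 771 kept their sign and their side of the threshold, and 41 turned sign. With the sign kept, 39 no longer passed and 31 newly passed. The 771 include changes that passed in neither fit, so this total does not measure how firm the calls are. The unknown footprint depth and 3 replicates limit what changes of this size can show.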
